A study of Mus musculus with 12 samples.

Results

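The 10 genes described here encode enzymes that break down isoleucine and the other branched-chain amino acids, leucine and valine. They are Bcat1, Bcat2, Bckdha, Bckdhb, Dbt, Bckdk, Acadsb, Hibch, Ivd and Mccc1, chosen by name for their place in the route. Earlier results of these data were known when they were chosen. The deposited count table has 59136 entries, of which 19004 had enough reads to be tested, and all 10 genes were among these.

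The data are messenger RNA profiles of mouse lung at day 28, with 6 libraries from wild-type mice (WT) and 6 from mice labelled Mut. The series describes the Mut genotype as Tyr148Cys/Arg444* in IARS1, the cytosolic isoleucyl-tRNA synthetase that loads isoleucine onto its transfer RNA, so that 1 change is a substitution and the other a stop. The sample labels call the same genotype a knockdown, and give both the tissue (lung) and the sample type (primary cells of lung). The labels do not say whether each library came from a separate mouse, and the spread that the p-values rest on is that between libraries. The sex of the mice is not given in the labels used here.

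Branched-chain amino acids are first stripped of their amino group by a transaminase, BCAT1 in the cytosol or BCAT2 in mitochondria. The resulting keto acids are then committed to breakdown by a mitochondrial complex, the branched-chain keto acid dehydrogenase, which the kinase BCKDK switches off by phosphorylation and the phosphatase PPM1K switches on. After that step the routes part: leucine yields acetyl-CoA and acetoacetate, valine yields propionyl-CoA, and isoleucine yields both acetyl-CoA and propionyl-CoA. Muscle, fat, liver and kidney are the organs in which this route is best known.

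The libraries held between 17118716 and 24014890 counts, of which 7286 to 10265 fell on the 10 genes. Levels are given as CPM, counts scaled to a common library size with the trimmed mean of M-values (TMM). The RNA of the targeted gene, Iars in the annotation, was not lower in Mut: it lay between 35.6 and 58.4 CPM in WT and between 41.4 and 71.6 in Mut, with a log2 fold change of 0.29 and an adjusted p of 0.189 (edgeR). Of 9 genes that mark lung cell types none was called changed, and their summed level ran from 31879 to 50612 CPM in WT and from 29554 to 45581 in Mut. Scgb1a1 and Sftpc made up most of that sum, so it says little of the other markers. At an unadjusted p under 0.05 (edgeR) 2 of the 9 were higher and 0 lower, against 14.4% and 13.2% of all tested genes. In Mut replicate 7 Pecam1 was at 459 CPM and Sftpa1 at 5056, against 737 to 947 and 2234 to 3271 in the other libraries. Among markers of other cells, all 7 B cell genes and 6 of 7 T cell genes were called lower in Mut. So were all 5 erythroid genes and all 8 cell cycle genes. Of a list of 12 genes, made of the stress regulator Atf4 and its targets, 11 were called higher.

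Windows of 250 bases before the RefSeq transcription starts (GRCm38.p6) were searched on both strands for TGATGNAA, the C/EBP-ATF response element, because this is the element through which ATF4 acts on many of its targets, and for CCAAT (the CCAAT box) and GGGCGG (the GC box). RefSeq entries were found for 9 of the 10 genes, with 12 windows in all; Dbt had no entry. TGATGNAA was in 0 of the 12 windows, in 3 of the 14 windows of Atf4 and its listed targets, and in 3.45% of all 32851 windows. CCAAT was in 5 of the 12 windows against 33.8% of all windows, and GGGCGG in 4 of 12 against 32.7%. A match describes letters only, and its absence says nothing of the factor. The windows of Mccc1, the member with the largest called fold change, and of Ivd, the member with the highest level per length, are shown with these letters in capitals on the gene's strand, from chr3:36000679-36000928 (minus) and chr2:118861744-118861993 (plus). A stretch of the Asns window, from chr6:7693214-7693243 (minus), is set beside them as an example that holds TGATGNAA.
Mccc1: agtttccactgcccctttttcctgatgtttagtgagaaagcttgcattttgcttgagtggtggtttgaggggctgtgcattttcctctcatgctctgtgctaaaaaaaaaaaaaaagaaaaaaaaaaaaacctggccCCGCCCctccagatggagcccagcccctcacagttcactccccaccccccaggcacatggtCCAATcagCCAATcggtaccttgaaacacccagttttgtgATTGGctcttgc
Ivd: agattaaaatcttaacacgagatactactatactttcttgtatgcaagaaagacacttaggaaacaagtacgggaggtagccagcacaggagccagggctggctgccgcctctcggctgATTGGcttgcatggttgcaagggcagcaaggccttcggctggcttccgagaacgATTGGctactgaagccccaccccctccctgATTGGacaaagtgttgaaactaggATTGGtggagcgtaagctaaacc
Asns: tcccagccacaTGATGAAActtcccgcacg
In the Mccc1 window CCAAT stood at 52 to 48 and at 44 to 40 bases before the start, and in reverse at 12 to 8, with a reversed GC box at 113 to 108. In the Ivd window CCAAT was reversed at all 4 places, at 131 to 127, 77 to 73, 47 to 43 and 23 to 19 bases before the start.

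Changes in Mut were small across the 10 genes, apart from Bcat1, which had few reads and an estimate of 1.81-fold that was not called. Dbt and Mccc1 were called higher, by 1.24-fold and 1.25-fold, and no member was called lower (quasi-likelihood test of edgeR, p adjusted over all 19004 genes by Benjamini-Hochberg, threshold 0.05). That is 2 of 10 genes, or 20%, against 4.57% of all tested genes called higher, 5.31% called lower and 9.89% called in either direction. The count rests on adjusted p-values close to the threshold. At an unadjusted p under 0.05, 3 members were higher and 1 was lower, against 14.4% and 13.2% of all genes. The log2 fold change was positive for 8 members and negative for Bcat2 and Bckdk. The median log2 fold change was 0.16 over the 10 members and 0.01 over all tested genes, 51.5% of which were positive. For none of the 10 did the WT and Mut libraries separate fully, against 4.58% of all tested genes (2.18% with every Mut library above every WT library and 2.39% below). In RNA pooled from many lung cells, a change in the number of cells that express a gene and a change in its RNA per cell cannot be told apart.

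**Figure D1:**
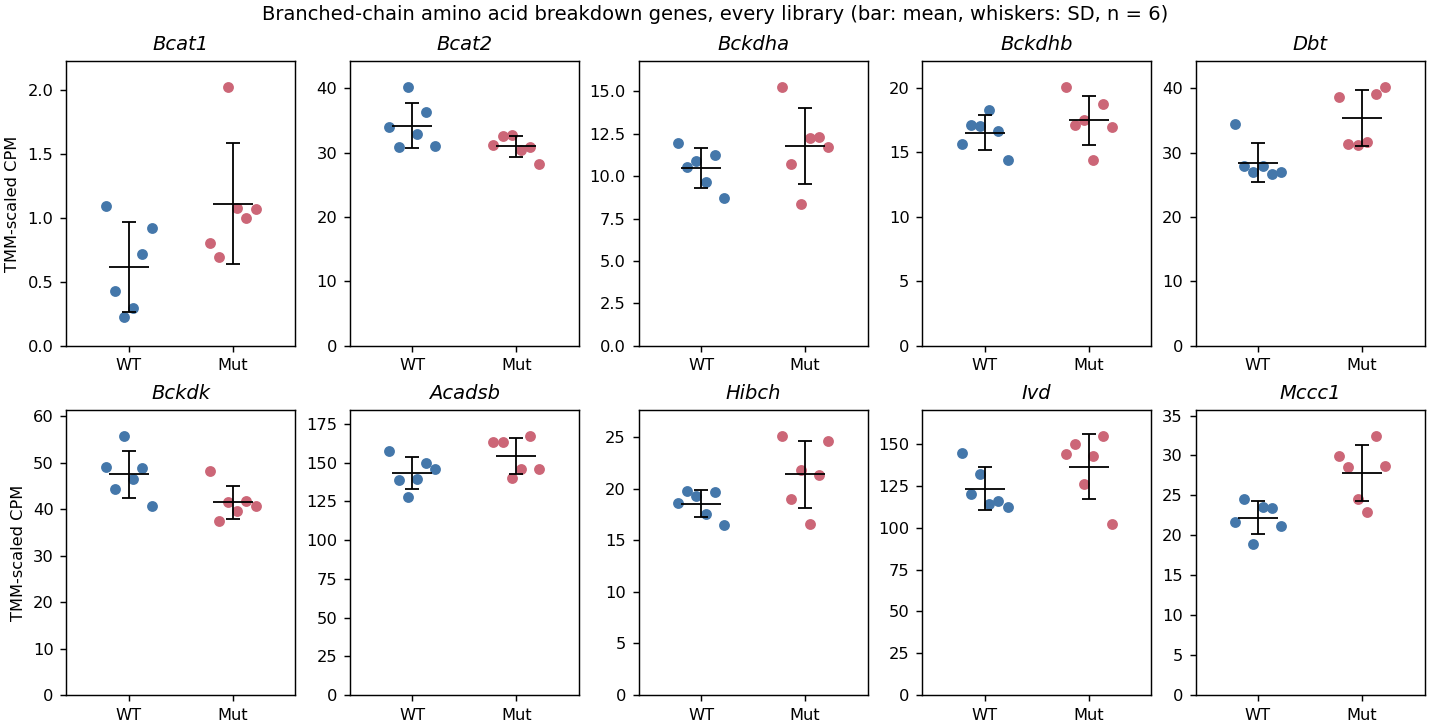
Level of each of the 10 genes in TMM-scaled CPM (vertical axes, each starting at 0) in the 6 WT and the 6 Mut libraries; points are libraries, bars are means and whiskers SD. The groups overlap for every gene, and Mccc1 comes closest to separating, with 5 of 6 Mut libraries above every WT library.

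Per unit of gene length, the deposited FPKM values (fragments per kilobase of gene, scaled to the library total) put Ivd first and Bcat1 last in both groups. In WT the mean FPKM ran from 22.8 ± 2.35 (SD, n = 6) for Ivd through 20.3 ± 1.56 for Acadsb and 13.1 ± 1.29 for Bckdk to 2.07 ± 0.212 for Mccc1 and 0.0672 ± 0.0385 for Bcat1. Bckdhb (9.32 ± 0.772), Bcat2 (8.92 ± 0.832) and Dbt (8.66 ± 0.951) did not separate in WT, each standing above the next in only 3 of 6 libraries. In Mut, Dbt stood 4th with 10.3 ± 1.32 FPKM, above Bckdhb (9.46 ± 1.09) in 4 of 6 libraries, and Bckdk (11 ± 1.04) stood above Dbt in 4 of 6. For each of the 10 genes the length behind the FPKM equals that of all its annotated exons together. For Mccc1 this is 10952 bases against 6751 for its longest transcript, and its FPKM is lower than it would be over that transcript.

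Of the transaminases, Bcat2, which acts in mitochondria, was at 8.92 FPKM in WT and Bcat1 at 0.0672. Bcat2 (chromosome 7, 45570153 to 45589711, plus strand, GRCm38) lay between 30.9 and 40.2 CPM in WT (median 33.4) and between 28.2 and 32.7 in Mut (median 31.0). All 6 Mut libraries were below the WT mean, and 3 were below every WT library. Its log2 fold change was -0.14 (SE 0.08, 95% interval -0.31 to 0.03), with an adjusted p of 0.257 by edgeR. That became -0.04 once trends with transcript length and GC content were removed (edgeR adjusted p = 0.646).

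Bcat1, the cytosolic transaminase (chromosome 6, 144993835 to 145076184, minus strand), had few reads, 4 to 39 per library. It lay between 0.229 and 1.09 CPM in WT (median 0.574) and between 0.696 and 2.02 in Mut (median 1.04). Only Mut replicate 3, at 2.02 CPM, exceeded every WT library, while all 6 Mut libraries were above the WT mean. Its log2 fold change of 0.85 (SE 0.36, 95% interval 0.08 to 1.63) did not pass the test, with an adjusted p of 0.141 by edgeR.

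The keto acid dehydrogenase complex is built on a core of DBT, the acyltransferase that carries the lipoyl arm, to which the decarboxylase subunits BCKDHA and BCKDHB and the shared dehydrogenase DLD bind. Dbt rose in Mut and its decarboxylase partners did not pass the test. In WT replicates 1, 3, 4, 5, 6 and 7, Dbt (chromosome 3, 116513070 to 116549981, plus strand) measured 34.4, 27.9, 26.9, 27.9, 26.7 and 27.0 CPM. In Mut replicates 1, 2, 3, 4, 5 and 7 it measured 38.7, 31.4, 31.2, 31.7, 39.1 and 40.2 CPM. Mut replicates 2, 3 and 4 lay above 5 WT libraries but below WT replicate 1, and Mut replicates 1, 5 and 7 exceeded every WT library. The mean rose from 28.5 ± 2.97 to 35.4 ± 4.35 CPM (SD, n = 6 each), a log2 fold change of 0.31 (SE 0.09, 95% interval 0.11 to 0.52) with an edgeR adjusted p of 0.0475. The call was kept in 3 of the 12 fits that left out a library; it was lost without WT replicates 3, 4, 5, 6 or 7 and without Mut replicates 1, 2, 5 or 7, with adjusted p-values of 0.0527 to 0.106. It was also lost with length and GC trends removed (log2 fold change 0.26, adjusted p = 0.0622).

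Bckdha, the decarboxylase subunit that the kinase phosphorylates (chromosome 7, 25629946 to 25658981, minus strand), lay between 8.69 and 12 CPM in WT (median 10.7) and between 8.36 and 15.2 in Mut (median 12). The Mut libraries spread beyond WT at both ends, and the log2 difference of 0.16 (SE 0.13, 95% interval -0.11 to 0.44) did not pass the test (edgeR adjusted p = 0.433). Of its 1899 exon bases, 1171 overlap B3gnt8 on the opposite strand, and how strand was used in counting is not given in the sources used here. B3gnt8, a glycosyltransferase gene, fell from 7.32 ± 1.26 to 4.85 ± 0.650 CPM (log2 fold change -0.59, edgeR adjusted p = 0.0157), so the Bckdha value is uncertain.

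Bckdhb, its partner subunit (chromosome 9, 83925145 to 84124240, plus strand), lay between 14.4 and 18.3 CPM in WT (median 16.9) and between 14.4 and 20.1 in Mut (median 17.3). The ranges nearly coincide, and the log2 fold change was 0.08 (SE 0.09, 95% interval -0.12 to 0.28) with an edgeR adjusted p of 0.607. Dld, which the complex shares with the pyruvate and oxoglutarate dehydrogenases, had a log2 fold change of 0.18 (95% interval 0.02 to 0.34) and did not pass the test (edgeR adjusted p = 0.136).

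Bckdk, the kinase that inactivates the complex, was lower on average in Mut without passing the test. In WT replicates 1, 3, 4, 5, 6 and 7, Bckdk (chromosome 7, 127904082 to 127910221, plus strand) measured 49.1, 44.3, 55.8, 46.5, 48.9 and 40.7 CPM. In Mut replicates 1, 2, 3, 4, 5 and 7 it measured 48.2, 37.5, 41.5, 39.5, 41.8 and 40.6 CPM. WT replicate 7 sat among the Mut values and Mut replicate 1 among the WT values. Bckdk had a log2 fold change of -0.20 (SE 0.08, 95% interval -0.38 to -0.02), with an unadjusted p of 0.0349 and an adjusted p of 0.147 by edgeR. Ppm1k, the opposing phosphatase, had a log2 fold change of 0.10 (95% interval -0.13 to 0.33, edgeR adjusted p = 0.569), which turned to -0.02 once trends with transcript length and GC content were removed.

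Mccc1 rose in Mut. It encodes the biotin-carrying subunit of methylcrotonyl-CoA carboxylase, a leucine-specific enzyme (chromosome 3, 35959312 to 36000678, minus strand). In WT replicates 1, 3, 4, 5, 6 and 7 it measured 21.7, 24.6, 18.9, 23.6, 23.4 and 21.2 CPM. In Mut replicates 1, 2, 3, 4, 5 and 7 it measured 29.9, 28.6, 24.6, 22.9, 32.4 and 28.7 CPM. Mut replicate 4 lay inside the WT range, Mut replicate 3 just above its top, and the other 4 well above it. The mean rose from 22.2 ± 2.05 to 27.9 ± 3.51 CPM (SD, n = 6 each), a log2 fold change of 0.33 (SE 0.10, 95% interval 0.12 to 0.53) with an edgeR adjusted p of 0.0444. The call was kept in 2 of the 12 fits that left out a library; it was lost without each of the 6 WT replicates and without Mut replicates 1, 2, 5 or 7, with adjusted p-values of 0.0554 to 0.105. With length and GC trends removed, the log2 fold change was 0.19 and the call was lost (edgeR adjusted p = 0.138). Opposite-strand exons of Mccc1os, Gm15952 and B230207O21Rik cover 198, 94 and 321 of its 10952 exon bases.

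Ivd, which catalyses the earlier dehydrogenase step of leucine breakdown (chromosome 2, 118861954 to 118882909, plus strand), lay between 113 and 145 CPM in WT (median 118) and between 102 and 155 in Mut (median 143). Mut replicate 7 was the lowest of all 12 libraries although the Mut median was higher. Ivd had a log2 difference of 0.15 (SE 0.10, 95% interval -0.07 to 0.36) with an edgeR adjusted p of 0.359.

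Acadsb, the dehydrogenase of the isoleucine branch (chromosome 7, 131410601 to 131448944, plus strand), lay between 128 and 157 CPM in WT (median 143) and between 140 and 167 in Mut (median 155). Its log2 fold change was 0.11 (SE 0.07, 95% interval -0.05 to 0.26, edgeR adjusted p = 0.355), and -0.02 once the length and GC trends were removed. Hibch, the hydrolase of the valine branch (chromosome 1, 52844929 to 52920986, plus strand), lay between 16.5 and 19.8 CPM in WT (median 18.9) and between 16.6 and 25.1 in Mut (median 21.6). The Mut libraries of Hibch spread more widely than WT, with a log2 fold change of 0.21 (SE 0.10, 95% interval -0.01 to 0.43, edgeR adjusted p = 0.207).

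**Figure D2:**
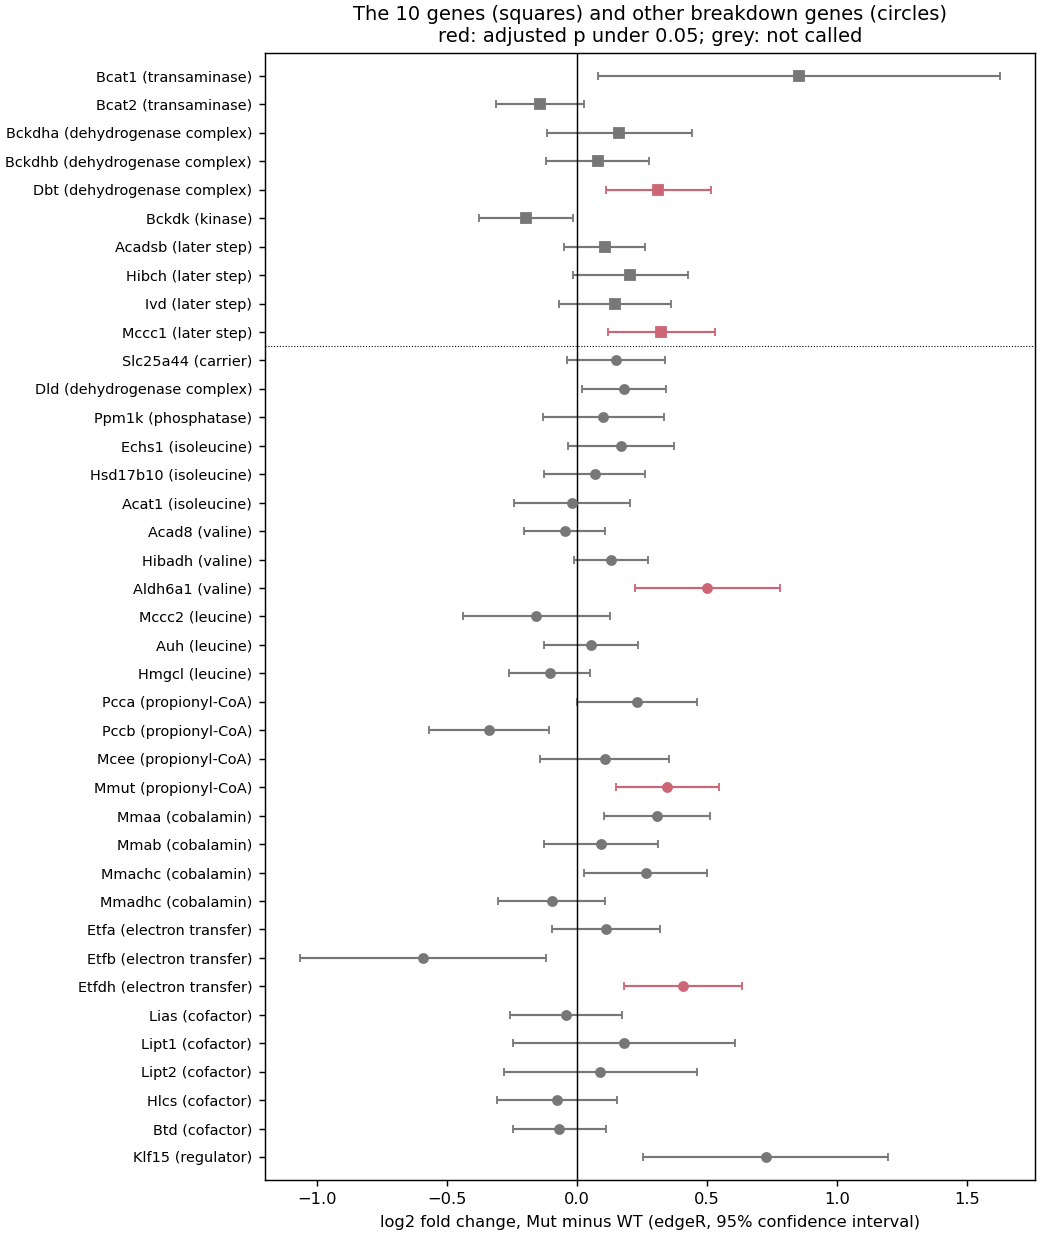
Log2 fold change, Mut minus WT, of the 10 genes and of the other genes of the route (horizontal axis), with 95% intervals from edgeR; red marks show genes called at an adjusted p under 0.05. The intervals of Dbt (0.11 to 0.52) and Mccc1 (0.12 to 0.53) lie to the right of 0, and the called genes Etfdh, Aldh6a1 and Mmut have estimates of 0.41, 0.50 and 0.35.

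Within the libraries, the members did not follow a single order. WT replicate 1 held the highest WT value of 5 members and WT replicate 7 the lowest of 5. The summed level of the 10 genes was 419 to 489 CPM in WT (median 442) and 441 to 520 in Mut (median 475). Mut replicates 1 and 5 had the highest sums, and Mut replicate 7 the lowest Mut sum in spite of its high Dbt and Mccc1.

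**Figure D3:**
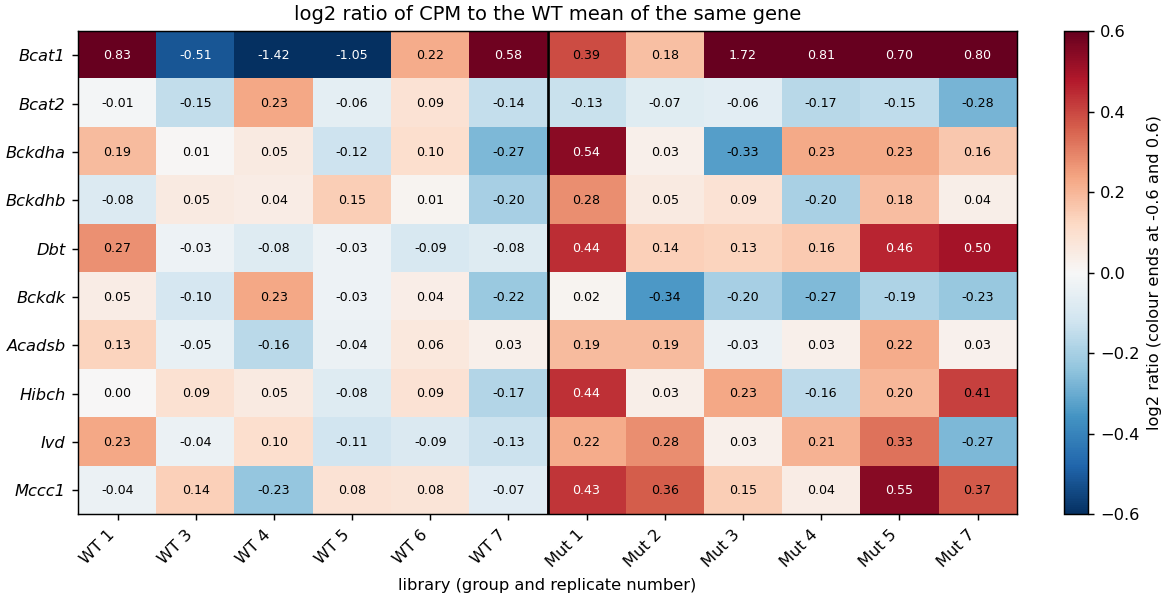
Log2 ratio of each gene's CPM in each of the 12 libraries (columns) to its WT mean (rows are genes; red is above and blue below the WT mean, with colour ending at -0.6 and 0.6). Dbt and Mccc1 are above the WT mean in all 6 Mut libraries, by 0.13 to 0.50 and 0.04 to 0.55, and Bcat1, with few reads, varies most.

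The 29 other genes of the route were chosen by role, with earlier results of these data known. They covered mitochondrial import, the remaining steps of each branch, propionyl-CoA handling, electron transfer and cofactor attachment. All 29 were tested: 3 were called higher (10.3%) and 0 lower, against 4.57% and 5.31% of all tested genes. At an unadjusted p under 0.05 there were 8 higher and 2 lower, against 14.4% and 13.2% of all tested genes. DESeq2 called 5 higher and 1 lower, against 1312 higher and 1503 lower over all genes. For limma-voom the counts were 4 higher and 0 lower, against 769 and 998 over all genes. The log2 fold change was positive for 19 of the 29, with a median of 0.10.

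Etfdh, the ubiquinone oxidoreductase that receives electrons from acyl-CoA dehydrogenases such as IVD and ACADSB through an electron carrier, rose in Mut. It lay between 28.4 and 44.8 CPM in WT (median 42) and between 45.6 and 60.0 in Mut (median 52.1), so every Mut library was above every WT library. Its log2 fold change was 0.41 (SE 0.11, edgeR adjusted p = 0.0257), and the call was lost without Mut replicate 1 (0.0593) or Mut replicate 5 (0.0578).

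Aldh6a1, the methylmalonate semialdehyde dehydrogenase that ends the valine branch, rose as well. It lay between 58.4 and 99.1 CPM in WT (median 77.2) and between 79.4 and 138 in Mut (median 112), with Mut replicates 3 and 4 inside the WT range. Its log2 fold change was 0.50 (SE 0.13, edgeR adjusted p = 0.0267), and the call was lost without WT replicates 3, 4 or 5 or Mut replicates 1 or 5 (adjusted p 0.0525 to 0.0646). The exons of Aldh6a1 overlap those of Bbof1 on the opposite strand over 1078 of 5784 bases.

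Mmut, listed as Mut in the annotation and not to be confused with the sample group, encodes methylmalonyl-CoA mutase, the last step that isoleucine and valine share on the way to succinyl-CoA. It lay between 50 and 63.2 CPM in WT (median 53.7) and between 55.9 and 82.9 in the Mut group (median 70.7), where 5 of 6 libraries were above every WT library. The log2 fold change was 0.35 (SE 0.09, edgeR adjusted p = 0.0295), and the call was lost without WT replicates 4, 5 or 6 or Mut replicates 1, 2 or 5 (adjusted p 0.0529 to 0.0727).

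The other enzymes on the isoleucine branch did not pass the test. Echs1, the hydratase, Hsd17b10, the next dehydrogenase, and Acat1, the thiolase that splits off acetyl-CoA, had log2 fold changes of 0.17, 0.07 and -0.02, with adjusted p-values of 0.261, 0.653 and 0.935 by edgeR. Hsd17b10 was called higher only with the length and GC trends removed (log2 fold change 0.20, edgeR adjusted p = 0.0195). Slc25a44, the mitochondrial carrier of branched-chain amino acids, was 0.15 higher on the log2 scale without passing the test (edgeR adjusted p = 0.275). Etfa, a subunit of the electron carrier upstream of ETFDH, and Mmadhc, which handles cobalamin, had values of 0.11 and -0.10 (edgeR adjusted p = 0.480 and 0.548).

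Several genes of the route that were picked out after their values were seen lay near the threshold. Klf15, a transcription factor known to induce genes of this route in muscle, ranged from 19.9 to 79.0 CPM in WT and from 70.4 to 86.7 in Mut. For Klf15 the log2 difference was 0.73 with an edgeR adjusted p of 0.0502, and the WT libraries spread far more than Mut (SD 19.4 against 6.86 CPM). Pccb, a subunit of propionyl-CoA carboxylase, had a mean of 76.4 ± 12.1 CPM in WT and 60.5 ± 7.55 in Mut, with a log2 fold change of -0.34 (edgeR adjusted p = 0.0596). Mmaa, a chaperone of the mutase, had every Mut library (20.5 to 23.3 CPM) above every WT library (14.3 to 20.3), with an adjusted p of 0.0530. Etfb, with a log2 difference of -0.59 and an edgeR adjusted p of 0.101, shares 617 of its 1164 exon bases with Gm45233 on the same strand, so its level is uncertain.

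Differences between genes that act together were also taken within each library. These pairs were chosen after their values were seen, and they are given without a test. How often pairs drawn from the whole table separate in this way was not computed. The log2 FPKM of Mccc1 minus that of Mccc2, its partner subunit in methylcrotonyl-CoA carboxylase, was -1.85 ± 0.29 in WT and -1.36 ± 0.21 in Mut (SD, n = 6), with 5 Mut libraries above every WT library. For Pcca minus Pccb, the subunits of propionyl-CoA carboxylase, the difference was -2.83 ± 0.22 in WT and -2.28 ± 0.20 in Mut, with no overlap. Dbt minus Bckdk was -0.60 ± 0.20 in WT and -0.09 ± 0.15 in Mut, again with no overlap. In both pairs without overlap, a gene with a positive log2 fold change was set against a gene with a negative one. The length and GC trends were not removed from these FPKM values. With those trends removed from the counts, the edgeR log2 fold changes were 0.19 for Mccc1 and -0.08 for Mccc2. They were 0.25 for Pcca and -0.27 for Pccb, and 0.26 for Dbt and -0.17 for Bckdk. Bckdha minus Bckdhb was -0.73 ± 0.18 in WT and -0.66 ± 0.28 in Mut, and the ranges overlapped. The other 4 pairs computed also overlapped. Dbt minus Bckdha was 0.62 ± 0.15 in WT and 0.79 ± 0.22 in Mut, with 3 Mut libraries above every WT library. Ppm1k minus Bckdk was -1.39 ± 0.30 and -1.08 ± 0.18, with 1 above. Bcat1 minus Bcat2 was -7.27 ± 0.98 and -6.14 ± 0.53, and Etfdh minus Etfb was -0.05 ± 0.64 and 0.98 ± 0.44, each with 4 Mut libraries above.

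**Figure D4:**
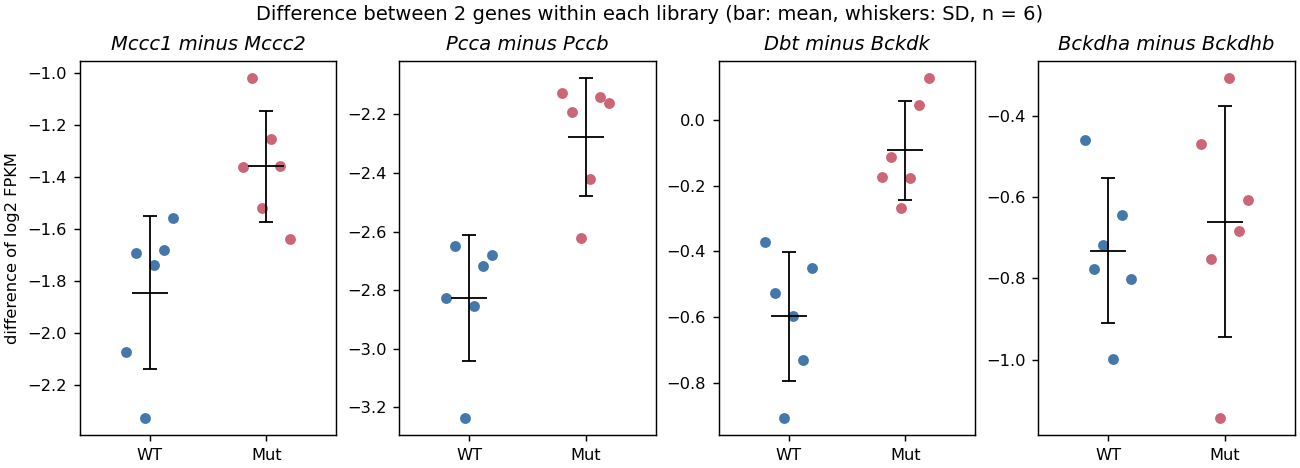
Difference of log2 FPKM between 2 genes of the same library (vertical axis, each panel with its own scale) for 4 pairs in WT and Mut; points are libraries, bars means and whiskers SD. The groups do not overlap for Pcca minus Pccb and Dbt minus Bckdk, and they overlap for Bckdha minus Bckdhb. The pairs were chosen after their values were seen. The length and GC trends were not removed from these values.

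Across the whole table, the difference between Mut and WT varied with transcript length and GC content. Over 4 equal bins of transcript length, from shortest to longest, the median log2 fold change was -0.10, -0.03, 0.04 and 0.11, and the share of genes called higher went from 1.6% to 7.73%. Over 4 equal bins of GC content, from lowest to highest, the median went from 0.05 to -0.03. The longest transcript of Mccc1 has 6751 bases and 43.1% GC, and that of Dbt 3301 bases and 42.1% GC. Relative to the 12-library mean, the slope of the log2 level against GC was farthest from 0 in Mut replicate 7 (-0.16 per 10 percentage points) and WT replicate 4 (0.13). The slope against length was farthest from 0 in WT replicate 4 (-0.16 per doubling), Mut replicate 5 (0.12) and Mut replicate 4 (0.088). With the trends removed from every library, neither Dbt nor Mccc1 was called. Etfdh (0.36, edgeR adjusted p = 0.0151), Aldh6a1 (0.45, 0.0237) and Mmut (0.28, 0.0345) were still called. Hsd17b10 (0.20, edgeR adjusted p = 0.0195) and Klf15 (0.81, 0.0352) were called there, though not in the edgeR fit before the removal.

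Markers of fat and muscle, which use this route, and of alveolar macrophages were also compared between the groups. Of 8 tested adipocyte genes 4 were called higher in Mut and 0 lower, and for 1 the groups did not overlap. The summed level of the 10 listed genes was 33.4 to 65.4 CPM in WT and 69.8 to 204 in Mut, without overlap. Lipe made up much of that sum, with 26.6 to 43.8 CPM in WT and 31.4 to 51.8 in Mut, and without Lipe the sums overlap. Adipoq overlapped too, with 0.518 to 4.98 CPM in WT and 2.32 to 16.7 in Mut. All 10 cardiac muscle genes had a positive log2 fold change (median 0.92) with 0 called, and a sum of 186 to 808 CPM in WT and 308 to 1932 in Mut. Skeletal muscle genes had 0 of 6 tested called, with sums of 9.78 to 20.1 CPM in WT and 12.2 to 31.2 in Mut. Alveolar macrophage genes had 1 higher and 2 lower of 8, and sums of 418 to 621 CPM in WT and 561 to 862 in Mut. Chil3 made up much of that sum, with 189 to 294 CPM in WT and 294 to 572 in Mut. Of the 8 log2 fold changes 4 were positive and 4 negative, with a median of -0.07. No gene of these lists was at 0 in all libraries. The part of these markers, and of length and GC, in the values of Dbt, Mccc1, Etfdh, Aldh6a1 and Mmut was not tested, apart from the fit with the length and GC trends removed.

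Slc7a5 and Slc3a2, which together form the exchanger LAT1 for large neutral amino acids, rose from 9.49 ± 1.70 to 48.1 ± 18.6 CPM (log2 fold change 2.34, edgeR adjusted p = 1.78e-05) and from 159 ± 10.8 to 275 ± 37.4 CPM (0.79, adjusted p = 0.000242), while Slc7a8, Slc43a1 and Slc43a2 did not pass the test (-0.19, 0.24 and 0.06). Of the synthetases that load these amino acids, Lars rose (0.38, edgeR adjusted p = 0.00887), and Iars, Vars, Iars2, Lars2 and Vars2 did not pass the test, with log2 fold changes from -0.14 to 0.29.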

How the data were processed

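Messenger RNA was enriched with oligo(dT) and sequenced from 12 mouse lung libraries, per the labels' protocols. The authors deposited a table with the count of reads per gene and another with FPKM values. The FPKM values equal the count divided by the library total and by gene length in 18438 genes checked, so they carry no scaling between libraries beyond the total. Per the submitters' processing notes the build was mm10 and limma was used. The aligner, the counter, the annotation version and the use of strand are not given in the sources used here. Symbols and coordinates were taken from GENCODE M21 (GRCm38), which matched 54409 of 59136 entries. The 4690 entries with no Ensembl identifier held 0.585 to 0.868% of counts and stayed in the library totals.

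Counts were fitted with edgeR 4.0.16 (R 4.3.3): low counts removed by filterByExpr (minimum count 10, minimum total 15), TMM scaling (factors 1.00 to 1.04 in WT, 0.968 to 0.990 in Mut), a robust quasi-likelihood test of genotype over all 12 libraries, and Benjamini-Hochberg adjustment over 19004 genes. The biological coefficient of variation was 17.4%. The fit was tested on simulated data. Alternatives were DESeq2 1.42.0, limma-voom and limma-trend (limma 3.58.1), other scalings, filters and thresholds, leaving out each library, the replicate number as a block, and a fit with each library's length and GC trend removed. The length and GC fit (lowess span 0.3, 96.2% of tested genes with a value) was chosen after seeing the data. The genes and lists were chosen with earlier results of these data known. All 10 members are named; of the other genes of the route, those called, the 4 not called with the highest mean FPKM, and Dld, Ppm1k and Slc25a44 for their role. Further genes were named after their values were seen: Echs1, Acat1, Klf15, Pccb, Pcca, Mmaa, Etfb, Mccc2 and B3gnt8.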

Additional observations from a re-analysis of the deposited data

Results flagged for a closer look

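Of 72 group values examined (36 genes in each of 2 groups of 6 libraries), 5 had 1 library far from the other 5 by Dixon's criterion, and chance alone gives about 3.6. Dbt in WT replicate 1 was 34.4 CPM, against 26.7 to 27.9 in the other WT libraries. Ppm1k stood out in the same library, at 40.7 CPM against 25.1 to 29.3. Bcat1 in Mut replicate 3 was 2.02 CPM, against 0.696 to 1.08. Hsd17b10 in WT replicate 4 was 43.8 CPM, against 31.0 to 35.4. Slc7a5 in Mut replicate 4 was 83.2 CPM, against 28.5 to 47.8.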

How the results depend on the processing

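The 2 calls among the 10 genes (Dbt and Mccc1) depended on the settings. The number called higher was 1 with RLE scaling, and 0 with upper-quartile scaling, library totals alone, no low-count filter, limma-voom, the 3 limma fits of log2 FPKM, an adjusted p under 0.01, and both fits with the length and GC trends removed. It ran from 0 to 2 when 1 library was left out, and the number called lower stayed at 0 in each of those fits. Calls over all genes moved as well, from 869 higher and 1010 lower in the edgeR fit of all 12 libraries. They were 518 and 1513 with library totals alone, and 183 and 272 at an adjusted p under 0.01. With the length and GC trends removed they were 1128 and 1130. The FPKM fits gave 254, 259 and 106 higher. Leaving out WT replicate 5 gave 401 higher and 556 lower, and leaving out Mut replicate 3 gave 1163 and 1205. Of the 27 alternatives, Dbt was called in 6, Mccc1 in 6, Mmut in 12, Aldh6a1 in 16 and Etfdh in 18. The 3 other genes of the route called higher became 1 with library totals alone, 5 with DESeq2, 5 at an adjusted p under 0.1, 5 with the length and GC trends removed, and 0 in the 3 FPKM fits, at an adjusted p under 0.01 and with the trends removed together with the replicate block. The number lower was 1 (Pccb) with upper-quartile scaling, library totals, no filter, DESeq2 and an adjusted p under 0.1. Leaving out 1 library gave 0 to 4 higher and 0 to 1 lower.

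No pairing by replicate number was seen: same-numbered libraries had correlations of -0.14 to 0.11, and only replicate 1 of 5 matched its own number best. So few correlations cannot exclude pairing. A fit with the replicate number as a block leaves fewer degrees of freedom than one without it. With the replicate block the calls were 0 members and 0 other genes higher, with 12 or with 10 libraries, while calls over all genes went from 869 higher and 1010 lower to 74 and 33 (12 libraries) or 85 and 41 (10 libraries).

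The direction was positive for 8 of the 10 genes under every alternative except the filter at 1 CPM, which dropped Bcat1 (7 of 9), and the length and GC fits (7 of 10). Over 36 genes and 27 settings, 860 of 971 values kept direction and side of the threshold, 81 were weaker, 15 stronger and 15 reversed, and none of the reversed values was called. Slc43a2 turned to -0.00067 with library totals, -0.0057, -0.0070 and -0.0057 in the FPKM fits, -0.015 in both block fits, -0.0047 with the trends removed and -0.081 with the block as well. Vars2 turned to -0.00056, -0.0016 and -0.00056 in the FPKM fits. With the trends removed, without and with the block, Acadsb turned to -0.022 and -0.022, and Ppm1k to -0.022 and -0.047. The cause of these changes was not tested. Bcat1 had at most 39 reads in a library.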
